A study of Homo sapiens with 6 samples.

Results

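Claudins and their partner proteins of the tight junction were followed in BT474 cells through 9 genes, the claudins CLDN1, CLDN3, CLDN4, CLDN7, CLDN8 and CLDN12, occludin (OCLN) and the scaffold proteins TJP1 and TJP3. Every probe whose gene name on the arrays equals one of these symbols was taken, which gave 12 probes of the 58201 on the array and 9 gene names of 43317. BT474 is a breast cancer cell line that is positive for the estrogen receptor and HER2. Control cells carried an empty pcDNA3.1 plasmid, BT474-Var1 cells were stably transfected with the long variant 1 of the long noncoding RNA NR2F1-AS1, and BT474-Var4 cells with its short variant 4. Each group was measured on 2 one-color Agilent arrays, named A and B, and all 3 groups were grown in RPMI-1640 with serum. Variant 1 was carried by pcDNA3.1/Hygro(+) and variant 4 by pcDNA3.1-P2A-eGFP, and the sources used here do not give which of these plasmids, empty, the Control cells of the arrays carried. The transcripts came from plasmids rather than from the gene itself. The paper describes antibiotic selection of the variant and control cells. It also reports that the variant cells dwindled to a few, from which colonies later grew. Selection of survivors and the variant itself cannot be told apart here. Whether A and B are separate cultures is not given either, so the p-values measure the spread between these arrays, which may be technical. The arrays lay on 1 slide, with both BT474-Var1 arrays in the other column from the rest, so position and variant 1 cannot be told apart for BT474-Var1. In bulk RNA, fewer cells of a kind and less RNA per cell cannot be told apart.

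Tight junctions seal the space between epithelial cells near their apical side. Claudins are membrane proteins that span the membrane several times and whose outer loops meet those of the neighbouring cell, and the set of claudins in a cell sets how tight the seal is and which ions pass. Occludin is a further membrane protein of the strands, and ZO proteins, such as those encoded by TJP1 and TJP3, bind the tails of claudins and occludin and link them to actin. Claudin levels differ between subtypes of breast cancer, and tumors low in claudins form a subtype named for it.

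The 2 CLDN12 probes lie in the same gene but gave different patterns, so where they sit is shown first. Probe A_23_P412515 lies at chr7:90042478-90042537 and probe A_23_P157268 at chr7:90044941-90045000 (hg19, plus strand), 2403 bases further along the gene. Both list only transcripts of CLDN12 among their RefSeq accessions. The GC content was 40% in A_23_P412515 and 35% in A_23_P157268. The first is given whole and the second by its first 30 bases, and no base is capitalized. Exon and UTR bounds on hg19 were not used here.
A_23_P412515: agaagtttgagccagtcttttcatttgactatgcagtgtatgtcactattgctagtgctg
A_23_P157268: agccatccaaggaaaataattatttacagt

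Probe A_24_P102053 of OCLN is shown because its accessions also name OCLNP1, a pseudogene copy of occludin, so its signal may come from either. Its 60 bases match a span of 2044 bases on the genome (chr5:68847386-68849429, hg19, plus strand), so it crosses an intron. The other OCLN probe, A_23_P92672, lists OCLN alone and begins 85 bases downstream.
A_24_P102053: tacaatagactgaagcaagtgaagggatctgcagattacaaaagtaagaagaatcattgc

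CLDN3, CLDN8 and CLDN12 were called higher with both variants, as given below. The 250 bases before the start are printed from RefSeq (GRCh38.p14) for CLDN3 and CLDN12, and for OCLN, which was not called, beside them. CLDN8 was not in the table of start regions. The CLDN3 stretch is chr7:73770271-73770520 on the minus strand, that of CLDN12 chr7:90403211-90403460 on the plus strand and that of OCLN chr5:69492297-69492546 on the plus strand. Capitals mark CAGGTG, an E-box that the repressors of the SNAI and ZEB families bind, searched on both strands (CAGGTG and CACCTG). It occurred once in the OCLN stretch and in neither claudin stretch. Of all 35116 start regions of this length in the table, 17.5% held it. Start regions were found for 8 of the 9 members, 14 in all, and 5 of the 14, from 4 genes, held the motif. These genes were CLDN7, OCLN, TJP1 and TJP3, of which TJP3 was called higher with variant 1. The motif was also absent for CLDN4, which was not called, and CLDN1, which was not tested. Presence of the motif thus did not follow the calls, and a link was not tested.
CLDN3: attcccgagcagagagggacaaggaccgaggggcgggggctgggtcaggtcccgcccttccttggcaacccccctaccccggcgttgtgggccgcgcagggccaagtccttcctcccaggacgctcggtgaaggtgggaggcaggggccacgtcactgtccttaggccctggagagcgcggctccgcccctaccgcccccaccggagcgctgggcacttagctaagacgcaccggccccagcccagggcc
CLDN12: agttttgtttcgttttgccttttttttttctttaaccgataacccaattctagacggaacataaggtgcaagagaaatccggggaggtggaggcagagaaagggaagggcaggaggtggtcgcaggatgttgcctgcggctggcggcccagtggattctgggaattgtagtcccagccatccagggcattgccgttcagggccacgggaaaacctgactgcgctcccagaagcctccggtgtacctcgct
OCLN: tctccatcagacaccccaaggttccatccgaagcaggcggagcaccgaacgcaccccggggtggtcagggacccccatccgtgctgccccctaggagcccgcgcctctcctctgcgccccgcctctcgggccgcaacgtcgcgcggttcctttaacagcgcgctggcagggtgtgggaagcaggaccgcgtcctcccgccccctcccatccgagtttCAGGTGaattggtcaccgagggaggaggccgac

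The transfected transcript followed the labels. Values here and below are log2 processed intensities relative to the 75th percentile of their own array, so 0 is the value of that percentile. Probe A_19_P00320140 of NR2F1-AS1 read -0.42 and -0.51 on the BT474-Var1 arrays and was not well above background on the other 4, at least 15.1-fold higher than Control. Probe A_24_P51080 read 1.67 and 1.50 on the BT474-Var4 arrays and was not well above background on the BT474-Var1 arrays. A further probe, A_22_P00006111, was raised in both populations. It read 3.01 and 3.02 in BT474-Var4 and -1.69 and -1.52 in BT474-Var1 cells. In Control it read -5.76, not well above background, and -4.16. Which variants it reads was not tested. Of the cells' own markers, all 9 of luminal breast epithelium, among them KRT8, KRT18, EPCAM and CDH1, were well above background on all 6 arrays. Of the markers of other cell types, 1 of 6 basal, 2 of 6 fibroblast, 2 of 5 endothelial and 3 of 5 leukocyte genes were, and KRT5, ACTA2, COL1A2, COL3A1, LUM, KDR and TEK were so on no array. Of the 9 luminal markers, 3 were called higher and 3 lower with variant 1, and 0 higher and 2 lower with variant 4. Of 3 basal and 3 fibroblast markers tested, 1 of each was called higher with variant 1 and 2 of each with variant 4. Of all gene names, 34.9% were called with variant 1 and 24.8% with variant 4. Among these markers KRT14 and DCN passed the filter on dim probes only through variant arrays, so no size of change is given for them. Of 2 endothelial markers 1 was called lower with variant 1, and the 4 leukocyte markers tested passed in neither comparison with Control (limma adjusted p = 0.157 to 0.713). The part of these markers in the junction results was not tested.

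In BT474-Var1 cells, CLDN3, CLDN8, both probes of CLDN12 and TJP3 rose, by 1.17-fold to 1.73-fold. In BT474-Var4 cells CLDN3, CLDN8 and 1 CLDN12 probe rose, by 1.25-fold to 1.97-fold. CLDN4, CLDN7, OCLN and TJP1 passed the test in neither population, although with variant 1 CLDN4 A_33_P3285545 passed in 4 of 15 alternative settings (higher), TJP1 in 4 (lower) and OCLN A_23_P92672 in 2 (lower). Of the 12 probes, 11 rose well above background on each array of at least 1 group and were tested, and the CLDN1 probe did not. A probe was called at an adjusted p under 0.05 in limma's fit over 31858 probes. With variant 1, 5 of 11 member probes were called, all higher, where 34.4% of all tested probes were called and 14.1% were called higher. With variant 4, 3 of 11 were called, all higher, where 24.2% of all probes were called and 9.87% were called higher. No member probe was called lower in either comparison. At an unadjusted limma p under 0.05, 6 were higher and 2 lower with variant 1, and 5 higher and 0 lower with variant 4. No share over all probes was taken at that threshold. An unmoderated one-way analysis of variance, the model the methods name, was tested here by contrasts between groups with adjusted p. Its calls are not those of the authors. It called 4 higher and 1 lower with variant 1, and 3 higher and 0 lower with variant 4. It called 26.3% and 16.3% of all tested probes. With variant 1, 2 were called lower with normexp correction, 2 with trend and robust variances and 1 with the filter on all 6 arrays. In these settings 46%, 43.9% and 43.4% of all tested probes were called. The median change of the 11 probes was 0.22 with variant 1 and 0.07 with variant 4, beside -0.04 and -0.08 over all tested probes. The fitted change of every member probe was under 2-fold, and 3.94% and 3.17% of all tested probes were called with 2-fold or more. The arrays of variant and Control did not overlap for 8 of 11 member probes in each comparison, against 71.7% of all probes with variant 1 and 68.6% with variant 4. The comparisons share the Control arrays. With variant 1, the count fell to 1 without Control A, 1 without Control B, 2 without BT474-Var1 A and 2 without BT474-Var1 B. With variant 4, it fell to 1 without Control A, 1 without Control B and 1 without BT474-Var4 B.

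**Figure D1:**
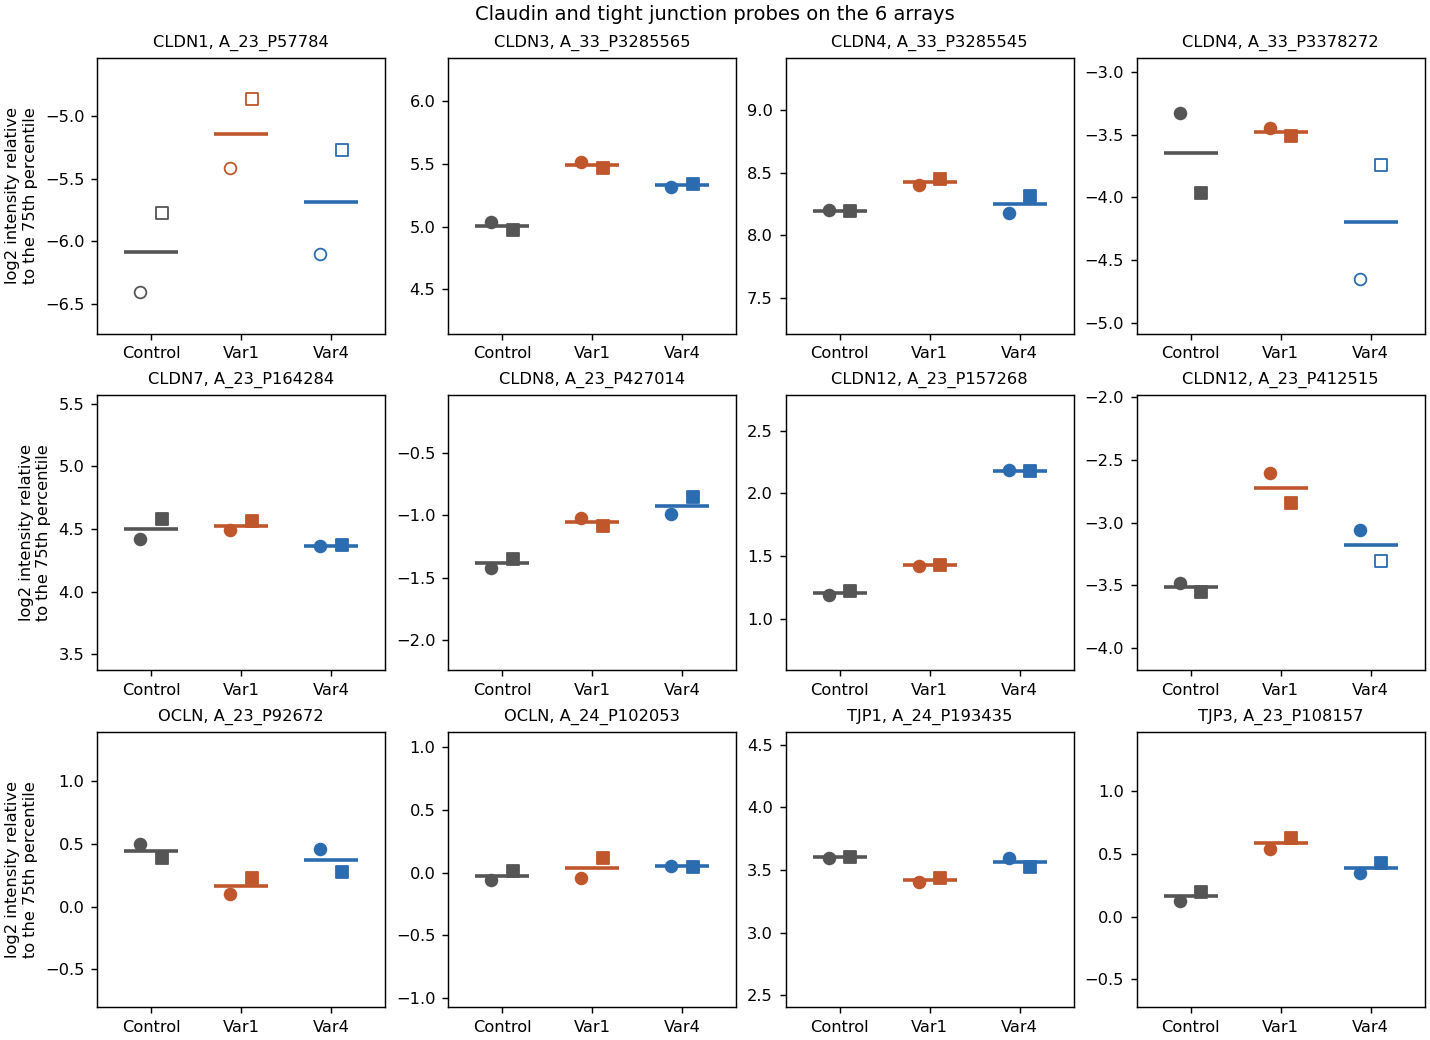
Values of the 12 probes of the 9 genes on each array. The vertical axis is the log2 intensity relative to the array's 75th percentile, and all panels span the same number of log2 units around their own middle; circles are arrays A and squares arrays B, open where the probe was not well above background, and lines are group means. CLDN12 A_23_P157268 sits at 2.19 and 2.18 in BT474-Var4 cells, above the other 4 arrays, and all 6 values of CLDN1 are open.

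CLDN3 seals junctions in many simple epithelia and is one of the receptors of a Clostridium toxin. Its probe A_33_P3285565 (chr7:73183327-73183386, minus strand, hg19) read 5.04 and 4.98 in Control, 5.52 and 5.47 in BT474-Var1, and 5.32 and 5.34 in BT474-Var4 cells. The 3 groups did not overlap, with BT474-Var1 highest and Control lowest. The rise with variant 1 was 0.49 on the log2 scale (SE 0.05, 1.40-fold, limma adjusted p = 0.00637), and it passed in 14 of 15 alternative settings. With variant 4 it was 0.32 (SE 0.05, 1.25-fold, adjusted p = 0.0209). That call was lost when Control A, Control B, BT474-Var4 A or BT474-Var4 B was left out, with adjusted p of 0.0804, 0.104, 0.0729 and 0.0868. The direct difference of BT474-Var4 from BT474-Var1 was -0.16 (95% interval -0.31 to -0.02, adjusted p = 0.0697) and did not pass.

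CLDN4 lies beside CLDN3 on chromosome 7 and is another receptor of that toxin. Its probe A_33_P3285545 read 8.20 and 8.19 in Control, 8.40 and 8.45 in BT474-Var1, and 8.18 and 8.31 in BT474-Var4 cells. Both BT474-Var1 arrays were above the others, and the BT474-Var4 arrays lay on either side of Control. The difference from Control was 0.23 with variant 1 (95% interval 0.06 to 0.40, adjusted p = 0.0563) and 0.05 with variant 4 (-0.13 to 0.22, adjusted p = 0.627). A second probe named CLDN4, A_33_P3378272, lies 2588 bases before it and carries no RefSeq accession. It read -3.32 and -3.97 in Control and -3.45 and -3.51 in BT474-Var1 cells, and was not well above background on either BT474-Var4 array. Neither direction passed for it, with an adjusted p of 0.757 for variant 1 and 0.333 for variant 4 against Control.

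CLDN7 is found along the lateral membrane of epithelial cells as well as in the junction. Its probe A_23_P164284 read 4.42 and 4.58 in Control, 4.49 and 4.56 in BT474-Var1, and 4.36 and 4.37 in BT474-Var4 cells. The BT474-Var4 arrays were the lowest, by a margin within the spread of the Control arrays. The difference from Control was 0.03 with variant 1 (95% interval -0.17 to 0.23, adjusted p = 0.797) and -0.13 with variant 4 (-0.33 to 0.07, adjusted p = 0.258).

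CLDN8 is best known from the kidney's distal tubule, where it limits the passage of cations. Its probe A_23_P427014 (chr21:31586966-31587025, minus strand, hg19) read -1.42 and -1.35 in Control, -1.02 and -1.09 in BT474-Var1, and -0.99 and -0.86 in BT474-Var4 cells. All 4 variant arrays were above both Control arrays, in the order Control, BT474-Var1, BT474-Var4. The rise was 0.33 with variant 1 (SE 0.07, 1.26-fold, adjusted p = 0.0283) and 0.46 with variant 4 (SE 0.07, 1.38-fold, adjusted p = 0.0178). The variant 1 call was lost without any one of the Control and BT474-Var1 arrays, at adjusted p from 0.0792 to 0.124, and held in 8 of 15 settings. It was lost too with the one-way analysis of variance (adjusted p = 0.0561) and with no filter on dim probes (0.132). The variant 4 call was lost without Control A, Control B or BT474-Var4 B (adjusted p = 0.0681 to 0.0911). BT474-Var4 and BT474-Var1 differed by 0.13 (95% interval -0.06 to 0.32, adjusted p = 0.201).

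CLDN1, a claudin of the skin barrier and of many epithelia, was not well above background on any array. Its probe A_23_P57784 read -6.41 and -5.77 in Control, -5.42 and -4.87 in BT474-Var1, and -6.10 and -5.27 in BT474-Var4 cells, and the arrays of each group lay apart. These values have no order, and no change is given.

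CLDN12 is a claudin that lacks the usual tail motif for binding ZO proteins. Probe A_23_P157268, the one further along the gene, read 1.19 and 1.22 in Control, 1.42 and 1.43 in BT474-Var1, and 2.19 and 2.18 in BT474-Var4 cells. The groups did not overlap, and the BT474-Var4 arrays stood apart from the rest. The rise with variant 4 was 0.98 (SE 0.05, 1.97-fold, adjusted p = 0.00293), and it passed in all 15 alternative settings, from 0.84 to 0.99. With variant 1 the rise was 0.22 (SE 0.05, 1.17-fold, adjusted p = 0.0279). That call held in 6 of the 15 settings and was lost whenever any 1 of the 6 arrays was left out (adjusted p = 0.0543 to 0.125). BT474-Var4 cells were higher than BT474-Var1 cells by 0.76 (SE 0.05, 1.69-fold, adjusted p = 0.00172), which passed in all 15 settings.

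The probe nearer the start of CLDN12, A_23_P412515, read -3.48 and -3.55 in Control, -2.60 and -2.84 in BT474-Var1, and -3.06 and -3.30 in BT474-Var4 cells. Here the BT474-Var1 arrays were highest, the groups again did not overlap, and array BT474-Var4 B was not well above background. The rise with variant 1 was 0.79 (SE 0.13, 1.73-fold, adjusted p = 0.0130), and with variant 4 it was 0.34 (95% interval 0.003 to 0.67, adjusted p = 0.122). The variant 1 call was lost without Control A, Control B or BT474-Var1 A, with adjusted p of 0.0623, 0.0693 and 0.0521. With normexp background correction the rise shrank to 0.19 with variant 1 and to 0.01 with variant 4, a correction that adds an offset and so compresses the changes of dim probes. The direct difference of BT474-Var4 from BT474-Var1 was -0.46 (SE 0.13, adjusted p = 0.0445), the opposite direction from A_23_P157268. It held in 3 of 14 settings and was lost without any 1 array (adjusted p = 0.0528 to 0.147). The fitted order of the 2 variants was thus opposite on the 2 probes, with a call that held throughout on A_23_P157268 and in few settings on A_23_P412515.

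**Figure D2:**
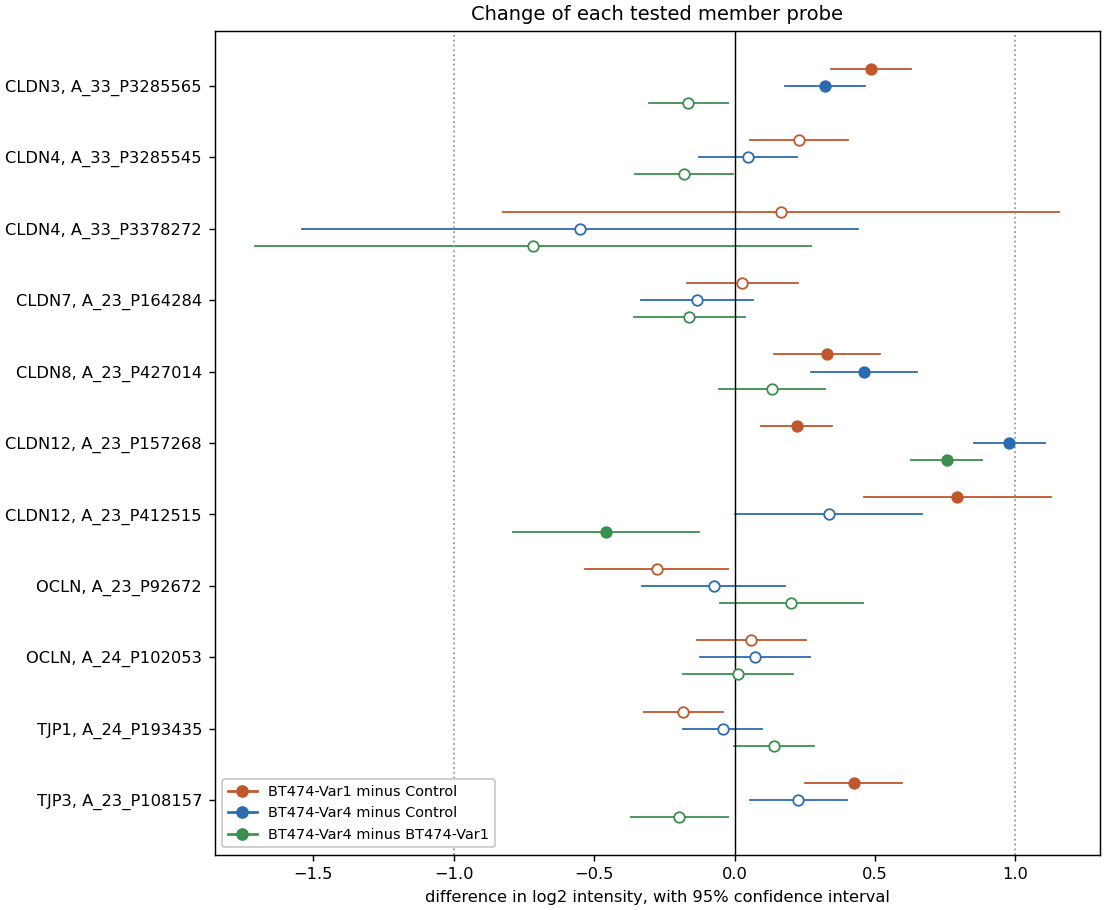
Difference in log2 intensity for the 11 tested probes in the 3 comparisons. Bars are 95% confidence intervals of the limma fit, filled points passed an adjusted p under 0.05, and dotted lines mark 2-fold. The 2 CLDN12 probes lie on opposite sides of 0 for BT474-Var4 minus BT474-Var1, at 0.76 and -0.46.

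Occludin did not pass the test in any comparison. Its probe A_23_P92672 read 0.50 and 0.39 in Control, 0.10 and 0.23 in BT474-Var1, and 0.46 and 0.27 in BT474-Var4 cells, so the BT474-Var1 arrays were the lowest. The difference was -0.28 with variant 1 (95% interval -0.53 to -0.02, adjusted p = 0.0895) and -0.07 with variant 4 (-0.33 to 0.18, adjusted p = 0.609). The intron-crossing probe A_24_P102053, which cannot be told from OCLNP1, read -0.06 and 0.01 in Control, -0.04 and 0.11 in BT474-Var1, and 0.05 and 0.04 in BT474-Var4 cells. Its differences from Control were 0.06 (95% interval -0.14 to 0.26) and 0.07 (-0.12 to 0.27), with adjusted p of 0.566 and 0.510.

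Of the scaffolds, TJP3 rose with variant 1 and TJP1 passed in neither population. TJP3, which encodes ZO-3, an epithelial ZO protein, read 0.13 and 0.19 in Control, 0.54 and 0.63 in BT474-Var1, and 0.35 and 0.43 in BT474-Var4 cells on probe A_23_P108157 (chr19:3746516-3746575, plus strand, hg19). The groups did not overlap, with BT474-Var1 highest. The rise with variant 1 was 0.42 (SE 0.07, 1.34-fold, adjusted p = 0.0123), and with variant 4 the difference was 0.23 (95% interval 0.05 to 0.40, adjusted p = 0.0694). The variant 1 call was lost without Control A, Control B or BT474-Var1 B, with adjusted p of 0.0694, 0.0542 and 0.0564. TJP1, which encodes ZO-1, the scaffold found in nearly all tight junctions, read 3.60 and 3.61 in Control, 3.41 and 3.43 in BT474-Var1, and 3.60 and 3.52 in BT474-Var4 cells. Both BT474-Var1 arrays were the lowest. Its difference was -0.18 with variant 1 (95% interval -0.32 to -0.04, adjusted p = 0.0599) and -0.04 with variant 4 (-0.18 to 0.10, adjusted p = 0.601).

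Between the 2 variants, 2 of 11 member probes were called, both of CLDN12, where 41.2% of all tested probes were called. No member probe changed by 2-fold or more there, beside 6.86% of all probes called at that size. At an unadjusted limma p under 0.05, 1 probe was higher and 4 were lower with variant 4 than with variant 1. No share over all probes was taken at that threshold. The median over the members was -0.16, and -0.03 over all probes. The arrays of the variants did not overlap for 10 of 11 member probes, against 74.6% of all probes. The count of calls fell to 1 without any one of the 6 arrays.

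**Figure D3:**
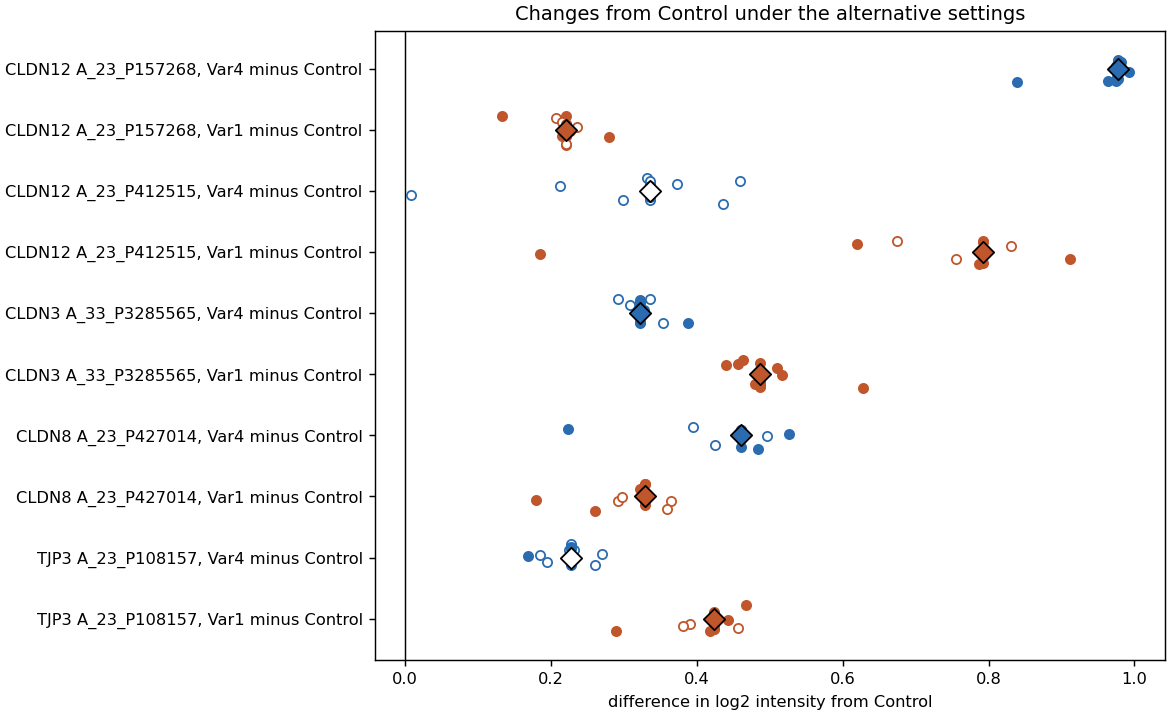
Differences in log2 intensity from Control for the 5 probes called with either variant, under the main setting (diamonds) and each alternative (circles). Filled symbols passed an adjusted p under 0.05. The CLDN12 A_23_P157268 rise with variant 4 stays between 0.84 and 0.99 and is filled throughout, and the A_23_P412515 rise with variant 1 ranges from 0.19 to 0.91.

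A list of 59 other tight junction genes was read with 1 probe per gene. Of these, 46 were tested, 40 were well above background on all 6 arrays, and 11 on none, among them CLDN5, CLDN10, CLDN11 and CLDN18. With variant 1, 9 genes were higher and 7 lower, 34.8% of those tested, where 34.9% of all gene names were called. With variant 4, 8 were higher and 5 lower, 28.3%, where 24.8% were called. Between the variants 15 were higher and 9 lower in BT474-Var4 cells, 52.2%, where 42% were called. Of all probes well above background on all 6 arrays, fitted alone, 48.4% were called there. The list's median change was -0.05 with variant 1, 0.01 with variant 4 and 0.05 between the variants, beside -0.05, -0.08 and -0.03 over all gene names. The shares with each variant against Control were thus near the background. Without an array the variant 1 count of 16 fell to 5 (Control A), 6 (Control B) and 7 (BT474-Var1 A). The variant 4 count of 13 fell to 1 (Control A), 1 (Control B), 7 (BT474-Var1 A), 7 (BT474-Var1 B), 2 (BT474-Var4 A) and 3 (BT474-Var4 B). The count of 24 between the variants fell to 14 (BT474-Var1 A), 14 (BT474-Var1 B), 12 (BT474-Var4 A) and 14 (BT474-Var4 B).

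INADL and AMOT of the list passed with 2-fold or more, both between the variants, and CLDN2 had a fitted change of that size there but only a smaller bound. INADL, the older symbol of PATJ, a scaffold of the Crumbs polarity complex, read 4.03 and 3.99 in Control, 4.56 and 4.54 in BT474-Var1, and 3.56 and 3.43 in BT474-Var4 cells. It rose by 0.54 with variant 1 (adjusted p = 0.00736) and fell by 0.51 with variant 4 (adjusted p = 0.0119), and its difference between the variants, variant 4 less variant 1, was -1.05 (adjusted p = 0.00167). AMOT, which encodes angiomotin, a scaffold that binds YAP, read 0.45 and 0.30 in Control, -0.11 and -0.38 in BT474-Var1, and 0.75 and 0.80 in BT474-Var4 cells. Its difference between the variants was 1.02 (adjusted p = 0.00486). CLDN2, a claudin that forms pores for cations, read -3.80 and -3.90 in Control and -3.13 and -3.62 in BT474-Var1 cells and was not well above background in BT474-Var4 cells. It was at least 1.44-fold lower there than in BT474-Var1 cells (adjusted p = 0.0289).

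The counts by family stand beside 34.9% of all gene names called with variant 1 and 24.8% with variant 4. The other claudins were mostly dim, and 9 of 17 were tested. CLDN14 passed the filter on dim probes only through the variants, since Control A was not well above background. It read -4.12 and -4.29 in Control, -2.98 and -3.46 in BT474-Var1, and -3.48 and -3.14 in BT474-Var4 cells. It is counted among the list genes higher with each variant, but no size of change is given for it. CLDN23 and CLDN24 were called lower with variant 4. The 2 other MARVEL proteins, relatives of occludin, are named after their values were seen. MARVELD2, or tricellulin, of the corners where cells meet, read 4.48 and 4.44 in Control, 4.08 and 4.14 in BT474-Var1, and 4.52 and 4.51 in BT474-Var4 cells. It fell by 0.35 with variant 1 (adjusted p = 0.0119) and differed by 0.05 with variant 4 (adjusted p = 0.518). MARVELD3 fell by 0.39 with variant 1 (adjusted p = 0.00897) and differed by -0.01 with variant 4 (adjusted p = 0.929). BT474-Var4 was higher than BT474-Var1 for both genes, by 0.40 and 0.38.

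Of the 3 angulins, which hold tricellulin at cell corners, ILDR1 rose with variant 1, by 0.55, and fell with variant 4, by 0.26 (adjusted p = 0.00679 and 0.0483). Of 4 immunoglobulin-like membrane proteins tested, CXADR and IGSF5 were called higher with variant 4 and none with variant 1 in limma's fit. Of 9 polarity complex genes tested, 2 were called higher and 2 lower with variant 1, and 2 higher and 1 lower with variant 4. Of 19 scaffold, plaque and signalling genes, 5 were higher and 3 lower with variant 1, and 3 higher and 1 lower with variant 4. Among them the plaque proteins CGN and CGNL1, cingulin and paracingulin, were called higher with both variants, CGN by 0.42 and 0.26 and CGNL1 by 0.38 and 0.62.

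**Figure D4:**
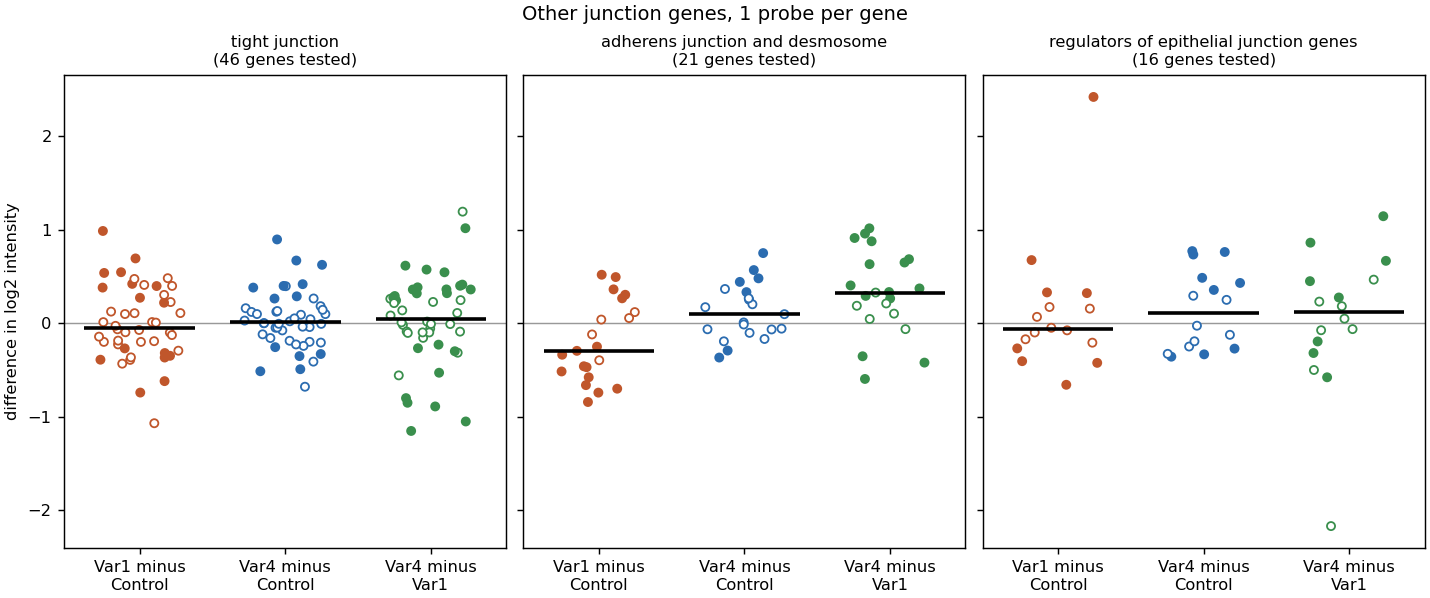
Differences in log2 intensity of other junction genes, 1 point per gene, in the 3 comparisons for 3 lists. Filled points passed an adjusted p under 0.05 and black lines are the median of each list. In the adherens junction and desmosome list the median is -0.30 for BT474-Var1 minus Control and 0.33 for BT474-Var4 minus BT474-Var1.

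Cadherins of the adherens junction and the desmosomes hold epithelial cells together beneath the tight junction. Of 23 adherens junction and desmosome genes, 21 were tested, all well above background on 6 arrays. With variant 1, 5 were higher and 11 lower, 76.2% against 34.9% of all gene names, with 20.7% of all gene names called lower. The list's median was -0.30. With variant 4, 6 were higher and 2 lower, 38.1% against 24.8%, with a median of 0.10. Between the variants 12 were higher and 3 lower in BT474-Var4 cells, 71.4% against 42%. Those background shares include dim genes, which this list lacks. Of all probes well above background on all 6 arrays, fitted alone, 43.4% were called with variant 1, 32.6% with variant 4 and 48.4% between the variants. The 38.1% with variant 4 was thus close to that share. In fits chosen after seeing the data, the variant 1 count of 16 fell to 9 without Control A and to 10 without Control B, BT474-Var1 A or BT474-Var1 B. The variant 4 count of 8 fell to 1 without Control A or Control B, to 4 without BT474-Var1 A or BT474-Var1 B and to 2 without BT474-Var4 A or BT474-Var4 B, while the count of 15 between the variants stayed at 12 to 14. CDH3, or P-cadherin, was the gene past 2-fold, between the variants, by 1.01 (adjusted p = 0.00211). It read 2.66 and 2.61 in Control, 1.79 and 1.79 in BT474-Var1, and 2.73 and 2.88 in BT474-Var4 cells, and it fell by 0.84 with variant 1 (adjusted p = 0.0046). CDH1, or E-cadherin, named after its values were seen, read 6.06 and 6.10 in Control, 5.60 and 5.62 in BT474-Var1, and 6.02 and 6.01 in BT474-Var4 cells. It fell by 0.47 with variant 1 (adjusted p = 0.00588) and differed by -0.07 with variant 4 (adjusted p = 0.368). CDH1 and CDH3 thus fell on the same BT474-Var1 arrays on which CLDN3, CLDN8, CLDN12 and TJP3 rose. The 5 genes of this list called higher there were PKP3, DSP, CTNNB1, JUP and CTNND1, by 0.27 to 0.52.

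Of 18 transcription and splicing factors known to set junction genes, 16 were tested. With variant 1, 4 were higher and 4 lower, 50% against 34.9% of all gene names. With variant 4, 6 were higher and 3 lower, 56.2% against 24.8%. Of these factors 13 were well above background on all 6 arrays. Of all such probes, fitted alone, 43.4% were called with variant 1 and 32.6% with variant 4. SNAI1, SNAI2 and ZEB1, repressors of claudin and cadherin genes, passed in neither comparison, with adjusted p from 0.256 to 0.892. SNAI2 and ZEB1 were dim, with SE of 0.29 and 0.23, so these tests could miss a change. SNAI2 was not well above background on array BT474-Var1 A, nor ZEB1 on BT474-Var4 B. TWIST1, another such repressor, named after its values were seen, was higher with variant 1 by 0.32 (adjusted p = 0.0265) and with variant 4 by 0.77 (adjusted p = 0.00606). GRHL3, a grainyhead factor of epithelial barriers, read -0.01 and -0.10 in Control, -0.75 and -0.68 in BT474-Var1, and 0.33 and 0.52 in BT474-Var4 cells. It fell by 0.66 with variant 1 (adjusted p = 0.00892), rose by 0.48 with variant 4 (adjusted p = 0.0247), and differed by 1.14 between the variants (adjusted p = 0.00235). CDX2, an intestinal factor, was not well above background on the Control or BT474-Var4 arrays and read -3.06 and -3.21 in BT474-Var1 cells. It is counted among the genes higher with variant 1, but it passed the filter on dim probes only through the BT474-Var1 arrays. No size of change is given for it.

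The member probe with the widest range of group means was CLDN12 A_23_P157268, and the genes with the most similar values over the 6 arrays were sought among 16734 genes. Likeness was the root mean square difference of the values after each probe was centered on its own mean. The nearest were FSTL1 at 0.039, ABHD4 at 0.043, RHOD at 0.047, MAP3K5 at 0.049 and IRF9 at 0.050 log2 units. FSTL1, which encodes a secreted glycoprotein, read 3.25 and 3.26 in Control, 3.40 and 3.41 in BT474-Var1, and 4.14 and 4.15 in BT474-Var4 cells. With variant 4 the 5 genes were higher by 0.89 for FSTL1 and RHOD, 0.95 for MAP3K5, 0.96 for ABHD4 and 1.03 for IRF9, beside 0.98 for the CLDN12 probe. With variant 1 their differences lay between 0.12 and 0.18, and none passed (limma adjusted p = 0.0705 to 0.140). The 5 genes were picked by these same values. Changes close to those of the CLDN12 probe thus follow from the choice and show no link between the genes.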

How the data were processed

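Total RNA of the cells was Cy3-labeled and read on one-color Agilent arrays. The deposited files of single arrays come from Feature Extraction 11.5.1.1, per the labels, and hold processed intensities after background subtraction by the authors, on a linear scale. The authors also deposited a table of log2 values, which they shifted in GeneSpring to the 75th percentile of each array, and it served here as an alternative. Here the log2 processed intensity less the 75th percentile of the non-control probes was taken, after leaving out outlier spots (63 to 128 of 60901 per array) and averaging repeated spots. Between 47.6% and 57.5% of probes per array were well above background, and the 31858 that were so on each array of some group were tested. limma 3.58.1 in R 4.3.3 fitted 3 group means over 6 arrays, with Benjamini-Hochberg adjustment over all tested probes. Bounds ("at least") set dim values at the dimmest signal well above background on that array. List genes took the tested probe with the highest mean. 1 gene among the list totals is not reported here. The rule named all members, NR2F1-AS1, list genes past 2-fold (fitted) and the adjusted p whose arrays did not overlap, and the nearest genes. Other list genes in the text were named after their values were seen. The number of arrays limits the precision. The pipeline was checked on simulated data. The members and lists were chosen with earlier results of these data known. Alternatives changed the background correction (normexp, offset 50), the normalization (quantile, or the authors' table) and the filter on dim probes. They also changed the variance model (trend and robust, or contrasts of an unmoderated one-way analysis of variance, which the methods name). Others changed the samples (only both groups compared, or without each array in turn) or added the replicate letter as a block.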

Additional observations from a re-analysis of the deposited data

Results flagged for a closer look

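CLDN12 stood out because its change with variant 4 differed from that with variant 1 by a test of the difference itself, and because its probes gave opposite signs. Probe A_23_P157268 was 0.76 higher on the log2 scale with variant 4 than with variant 1 (limma adjusted p = 0.00172, 2 arrays above 2). Probe A_23_P412515 differed by -0.46 (adjusted p = 0.0445, 2 arrays below 2), with array BT474-Var4 B not well above background, and that call held in 3 of 14 alternative settings. Why the probes differed was not tested.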

How the results depend on the processing

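Leaving out 1 array leaves a group with a lone array, assumed to vary like the others. Of 489 values of member probes under the alternatives, 414 kept direction and side of the threshold, 45 lost the call, 21 gained it, 9 moved among values with no call, and no called value changed sign. For variant 1 against Control, the 5 called member probes became 8 with normexp correction (2 of them lower), 0 with no filter on dim probes (all 12 tested), 3 with a replicate block, 8 with trend and robust variances (2 lower), 0 at 2-fold or more, and 1 to 4 with an array left out. The 10959 called probes became 2672 with no filter and 4172 to 9409 with an array left out, and the 16 list genes became 27 with normexp, 2 with no filter, 26 with trend and robust variances, 0 at 2-fold and 5 to 14 with an array left out. For variant 4 against Control, 3 member probes became 1 with no filter, 0 at 2-fold and 1 to 3 with an array left out. The 7709 probes became 722 with no filter, 4903 with the replicate block and 1501 to 5487 with an array left out, and the 13 list genes 0 with no filter, 6 with the block, 7 with only the groups compared, 7 with the one-way analysis of variance, 0 at 2-fold and 1 to 7 with an array left out. Between the variants, 2 member probes became 4 with normexp, 1 with no filter, 1 with the filter on all 6 arrays, 6 with trend and robust variances, 1 with only the groups compared, 1 with the one-way analysis of variance, 0 at 2-fold and 1 with an array left out. The 13117 probes became 5112 with no filter and 8086 to 10693 with an array left out, and the 24 list genes 7 with no filter, 3 at 2-fold and 12 to 16 with an array left out. Without the filter the share of calls that were higher went from 40.9% to 51.5% with variant 1 and from 40.8% to 59.8% with variant 4, and the median of all probes from -0.04 to 0.12 with variant 1. The share of all probes called with variant 1 was 34.4% in the main fit, 46% with normexp and 43.9% with trend and robust variances. Between the variants these shares were 41.2%, 57.6% and 49.5%. The cause of these moves was not tested, also for the unfiltered fit, which adds the dim probes. Deviations of arrays with the same letter correlated at -0.01, 0.05 and -0.02, so no strong effect shared by letter was seen. With 2 arrays per group this cannot show whether the letters A and B pair the arrays by culture or preparation. Signal over background limits CLDN1, the dim CLDN4 probe and CLDN12 A_23_P412515.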
